A study of Mus musculus with 12 samples.

Results

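The comparison set the expression ratio of congenic to B6 mice in spleen T cells against the same ratio in kidney, gene by gene. B6.NODIdd1,5 mice are C57BL/6 (B6) mice that carry 2 NOD intervals. Idd1 on chromosome 17 holds the major histocompatibility complex (MHC), and Idd5 lies on chromosome 1. The groups compared were spleen T cells of B6.NODIdd1,5 mice (2 arrays) and kidney cells of B6.NODIdd1,5 mice (2 arrays). On each array RNA of the congenic mice was labelled with Cy5 and RNA of the same tissue from B6 mice with Cy3, so each spot gave 1 ratio and no level. Members were all genes named by probes with exactly 1 gene symbol that had a value on each of the 4 arrays. These were 7931 of 8708 named genes in the series, and 777 lacked a value on at least 1 of the 4 arrays. The other 8 of 12 arrays hold T cells of NOD, NOD.H2h4 and marrow-transferred mice and served only to estimate the spread. Age, sex, number of animals, the sort or gate of the cells, the ends of the intervals and any other NOD segment in the congenic line are not stated in the labels.

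Congenic strains carry a donor segment on a fixed background, so every tissue of the animal has the same donor alleles. Idd1 is the strongest of the diabetes susceptibility loci of the mouse and includes the class II genes that present peptides to helper T cells. Idd5 holds several loci, and its candidate genes include the T cell costimulation cluster of Cd28, Ctla4 and Icos and the metal transporter gene Slc11a1. Kidney is not the target of autoimmune diabetes and serves here as a second tissue with the same genotype.

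Values are log2 ratios to B6 of the same tissue, with each array centred on its median. The tissue difference of a gene is its mean in T cells minus its mean in kidney, given with the standard error of the limma fit and n = 2 arrays per tissue, and adjusted p-values come from limma with Benjamini-Hochberg adjustment over 14486 features, unnamed probes included. A gene called higher or lower passed adjusted p = 0.05 in that difference. Before centring the array medians were -0.23 and -0.16 in T cells and -0.41 and -0.51 in kidney, so higher and lower are relative to the typical probe of each array. The T cell arrays were less alike than the kidney arrays: across genes, which are not independent replicates, the Spearman correlation was 0.60 and Pearson's r 0.49 between the T cell arrays, and 0.86 and 0.79 between the kidney arrays. The median absolute difference between replicates was 0.20 in T cells and 0.069 in kidney. Nothing in the labels says that replicates came from separate animals, so the p-values measure only the spread between replicate arrays. That spread was estimated for each gene over all 12 arrays in 6 groups, not from the T cell or kidney arrays alone. Spot brightness was not analysed here, and its part in any result below was not tested.

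In total 505 genes were higher and 799 lower in T cells than in kidney. Over all 14486 features 20.5% were called, 6.96% higher and 13.5% lower, and over the 7931 genes 16.4% were called, 6.37% higher and 10.1% lower. The median tissue difference was -0.08 over genes and -0.10 over all features. As deposited, without centring, the median over all features was 0.16 and the called features split the other way (73.3% higher, against 34.0% after centring). In that setting 680 genes were called, of which 625 were among the 1304 called after centring, with the same direction, and 0 were called in the opposite direction. Leaving out kidney replicate 1 or 2 cut the called features to 1459 or 1479 of 2969. Across the genes the mean ratios of T cells and kidney had a Spearman correlation of 0.35 and Pearson's r of 0.28. The 2 tissues used different B6 RNA but share the probes and the dye orientation.

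Each called gene was placed by what its 2 sides did against B6. Of the 799 lower genes, 308 fell in T cells with the kidney side not past the threshold, 243 rose in kidney with the T cell side not past it, and 143 fell in T cells and rose in kidney. A further 56 fell in both tissues and more in T cells, 27 rose in both and more in kidney, and 22 passed on neither side. Of the 505 higher genes, 281 rose in T cells with kidney not past, 110 fell in kidney with T cells not past, and 62 rose in T cells and fell in kidney. The remaining ones rose in both (22), fell in both (20) or passed on neither side (10). In all, 205 genes went in opposite directions against B6, a count that was 125 without centring. The genes that rose in T cells alone had a median of 1.35 in T cells and -0.19 in kidney, whereas those that fell in T cells alone had a median of -0.81 in T cells and 0.08 in kidney.

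**Figure D1:**
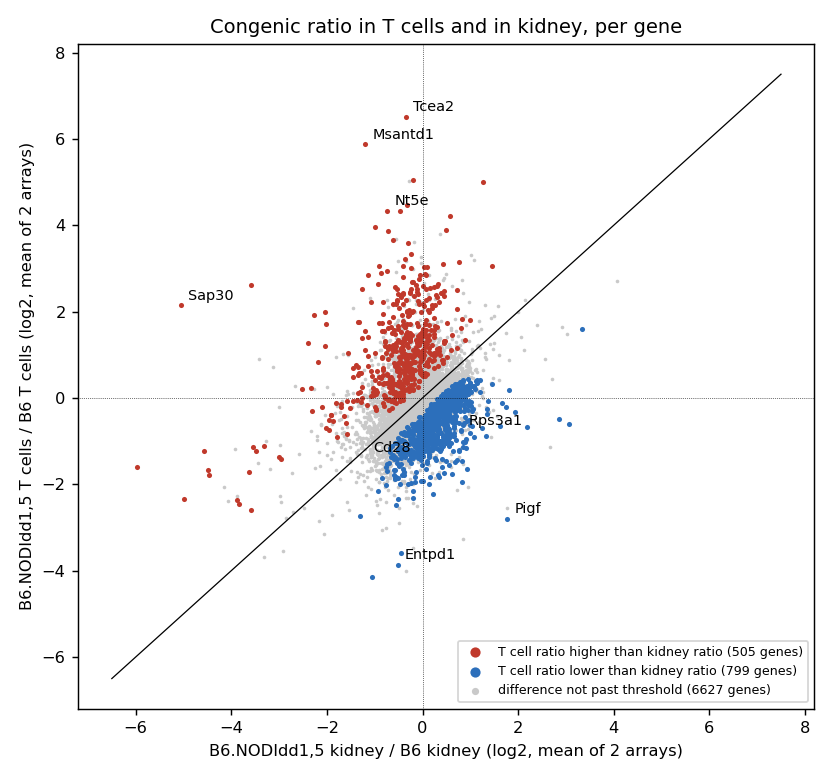
Each point is 1 of 7931 genes, with its mean log2 ratio to B6 in T cells (vertical axis) against that in kidney (horizontal axis), 2 arrays each. Red points (505 genes) lie above the diagonal of equal ratios and blue points (799 genes) below it. The red points reach far up the T cell axis, while most blue points form a dense band close to the diagonal.

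Ribosomal protein genes had the highest share of lower members among the 22 lists examined. Of 72 measured members of a list of 82, 0 were higher, 47 lower and 25 did not pass, which is 65.3% lower against 10.1% of all genes. The median tissue difference of the list was -0.48, with a median of -0.22 in T cells and 0.37 in kidney. Against B6 after centring, 32 members fell and 4 rose in T cells, whereas 48 rose and 0 fell in kidney. In these tests 30.6% of all features passed in T cells, 15.2% higher and 15.5% lower, and 33.5% passed in kidney, 22.5% higher and 11.0% lower. The kidney array medians were -0.41 and -0.51 before centring, so the list median in kidney lay below B6 as deposited. Over all features 431 were higher than B6 in kidney without centring, against 3517 after it. For 68 of the 72 both T cell arrays lay below both kidney arrays, a pattern seen in 41.6% of all genes. Without centring 14 were lower and the list median was -0.21, and without kidney replicate 1 or 2 the count was 26 or 28. Probes of ribosomal protein genes can also bind RNA of their many processed pseudogenes.

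Rps3a1, a protein of the small subunit, stood at -0.72 and -0.78 in T cells, against 0.81 and 0.80 in kidney. Its tissue difference was -1.56 ± 0.093 (adjusted p = 0.000112), the largest drop of the list, and its 4 probes gave -1.17, -1.21, -1.86 and -1.99. Rpl12, a protein of the stalk base of the large subunit, had -0.62 and -0.62 in T cells, against 0.86 and 0.82 in kidney. Replicates of Rpl12 nearly coincided in either tissue, and the difference was -1.46 ± 0.088 (adjusted p = 0.000112). Rps7, another small subunit protein, had -0.50 and -0.51 in T cells, against 0.64 and 0.67 in kidney. All 3 genes fell in T cells and rose in kidney when each side was tested against B6.

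Their promoters are shown because the genes of this list moved together. Each sequence runs from 100 bases before to 20 after the RefSeq transcription start (RefSeq, GRCm38.p6). Capitals mark a pyrimidine tract, CTTTTC, and a binding motif of ETS transcription factors, CCGGAAG, each searched on both strands.
Rpl12: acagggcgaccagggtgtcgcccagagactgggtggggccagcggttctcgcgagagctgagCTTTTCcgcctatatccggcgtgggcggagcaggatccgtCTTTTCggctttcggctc
Rps3a1: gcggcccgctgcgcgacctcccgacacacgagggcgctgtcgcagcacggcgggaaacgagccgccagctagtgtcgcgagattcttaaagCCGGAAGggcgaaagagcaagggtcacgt
Rps7: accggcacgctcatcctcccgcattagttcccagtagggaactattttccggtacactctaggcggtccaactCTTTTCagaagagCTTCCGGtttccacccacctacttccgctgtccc
The windows are chr2:32961612-32961731 on the plus strand, chr3:86142649-86142768 on the minus strand and chr12:28635934-28636053 on the minus strand. The ETS motif was present in 29.2% of 48 windows of the lower ribosomal protein genes, in 23.8% of 21 windows of those that did not pass, and in 5.77% of 32851 RefSeq windows. For CTTTTC the shares were 16.7%, 14.3% and 8.39%. The motifs do not overlap each other, and a match is a description of the letters only.

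**Figure D2:**
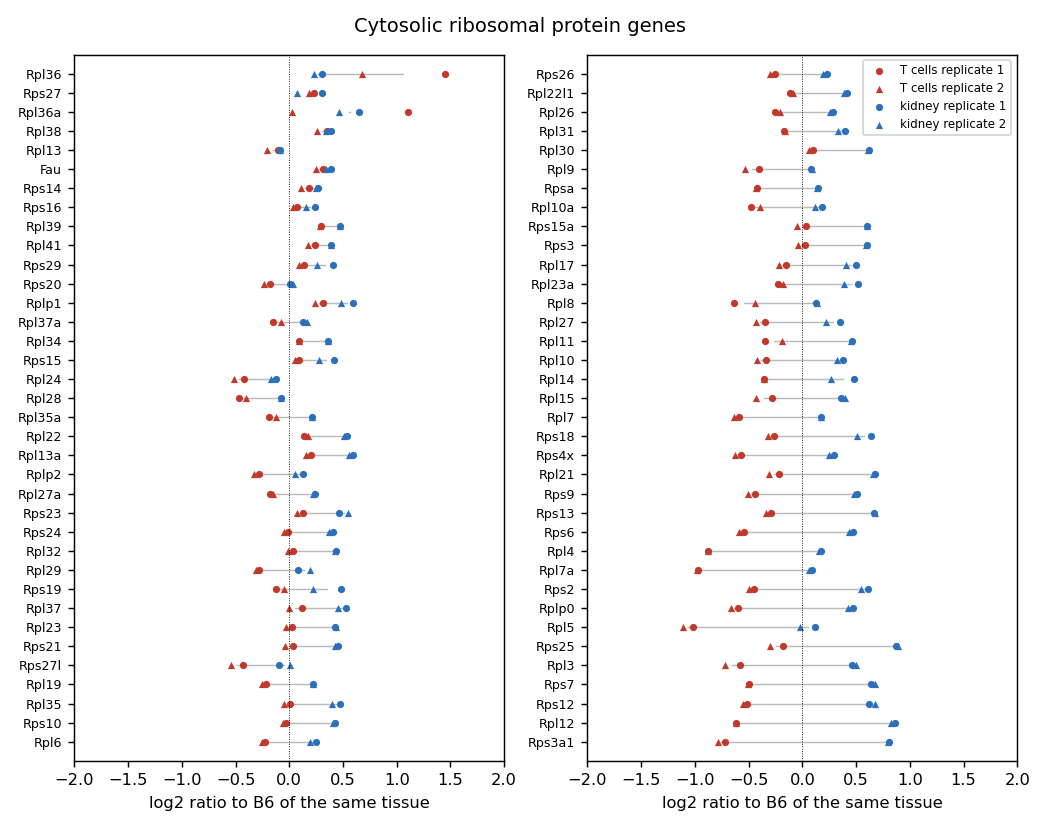
The 72 measured ribosomal protein genes are ordered by tissue difference from the top left to the bottom right, with log2 ratios to B6 of the T cell arrays in red and the kidney arrays in blue (circle replicate 1, triangle replicate 2, grey line between the means). In 68 of 72 genes both red symbols lie left of both blue symbols, and the gap reaches -1.56 for Rps3a1.

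Eef1a1, the elongation factor that brings aminoacyl-tRNA to the ribosome, was lower with every probe that covered the 4 arrays. Its values were -1.12 and -1.12 in T cells, against 0.58 and 0.52 in kidney. The difference was -1.67 ± 0.14 (adjusted p = 0.000372), and it was -2.03 when only its 7 probes with a value on all 4 arrays were averaged.

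Nuclear genes of oxidative phosphorylation showed the same direction. Of 55 measured, 1 was higher, 22 lower and 32 did not pass (40.0% lower), with a median of -0.39. Over all features 13.5% were lower, and over all genes 10.1%. In kidney 19 rose and 1 fell against B6 after centring, and in T cells 3 rose and 16 fell. The list median in kidney was 0.31 after centring, which lay below B6 as deposited. The lower members came from each of the 5 complexes of the chain. Uqcrb of complex III had -0.98 and -0.96 in T cells, against 0.70 and 0.69 in kidney, a difference of -1.66 ± 0.11 (adjusted p = 0.000156). Atp5a1, the alpha subunit of ATP synthase, had -0.99 and -0.86 in T cells, against 0.44 and 0.45 in kidney. Sdhd of complex II had -1.26 and -1.32 in T cells, against 0.15 and 0.12 in kidney, so its difference of -1.42 ± 0.13 lay on the T cell side. The exception was Ndufc2 of complex I, at 3.56 and 1.96 in T cells, against -0.04 and -0.11 in kidney (2.83 ± 0.45, adjusted p = 0.00476). Without centring 10 members were lower, and without kidney replicate 1 or 2 the count was 14.

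In glycolysis and the citric acid cycle 8 of 34 genes were lower, 1 was higher and 25 did not pass, with a median of -0.32. The lower share was 23.5%, against 13.5% of all features. The 8 lower genes were the glycolytic enzyme genes Aldoa, Tpi1, Gapdh, Pgk1 and Pgam1, the lactate dehydrogenase genes Ldha and Ldhb, and Dld, a subunit shared by mitochondrial dehydrogenase complexes. Gapdh had -0.91 and -0.79 in T cells, against 0.60 and 0.61 in kidney, and differed by -1.45 ± 0.10 (adjusted p = 0.000191). Tpi1, the triose phosphate isomerase, differed by -1.50 ± 0.13 and Pgam1, phosphoglycerate mutase, by -1.54 ± 0.14. All 3 fell in T cells and rose in kidney. Aco1, which acts as aconitase or as an iron-responsive RNA-binding protein, was the higher one (2.48 and 1.60 in T cells, against 0.28 and -0.06 in kidney, adjusted p = 0.00559). Without centring 4 genes were lower, and without kidney replicate 1 or 2 the count was 5. Acadvl, the enzyme that starts mitochondrial oxidation of very long fatty acids, was at -2.29 and -2.16 in T cells, against 0.27 and 0.18 in kidney (-2.45 ± 0.23, adjusted p = 0.000523).

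Chaperone genes followed, with 12 of 40 lower, 2 higher and 26 not past (median -0.30). This was 30.0% lower, against 13.5% of all features. Hspa8, the constitutive cytosolic heat shock protein, had -1.24 and -1.23 in T cells, against 0.77 and 0.77 in kidney. The difference was -2.01 ± 0.089 (adjusted p = 3.45e-05), and its 4 probes ranged between -2.83 and -1.13. Hspa9, its mitochondrial relative, fell in T cells and rose in kidney (-0.92 ± 0.12), while Calr, a chaperone of the endoplasmic reticulum, differed by -0.86 ± 0.099 with the kidney side not past. Hspa13 was among the higher ones because it was lower still in kidney, at -1.74 and -0.71 in T cells and -3.20 and -3.78 in kidney. Without centring 3 chaperone genes were lower and the list median was -0.03, and without kidney replicate 1 or 2 the count was 5 or 6.

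Glutathione and detoxification genes had 10 of 30 lower (33.3%, against 13.5% of all features), 1 higher and 19 not past, with a median of -0.35. Txn1, thioredoxin, had -0.79 and -0.85 in T cells, against 1.07 and 0.92 in kidney, and differed by -1.81 ± 0.097 (adjusted p = 8.49e-05). Prdx1, a peroxidase that thioredoxin recharges, rose in kidney at 1.07 and 1.003, and its T cell values of -0.32 and -0.26 did not pass against B6. These T cell values average 2 probes of opposite sign, with -0.965 and -0.63 on 1 probe and 0.32 and 0.11 on the other. The tissue differences of the 2 Prdx1 probes were -1.83 and -0.83. Gsr, glutathione reductase, fell in T cells at -1.13 and -1.40, with kidney at 0.04 and -0.10. Gpx1, the main cytosolic glutathione peroxidase, was higher by 0.72 ± 0.15. The count of lower genes was 6 without centring, without kidney replicate 1 or without T cell replicate 2, and 4 without kidney replicate 2.

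Proteasome subunit genes had 8 of 35 lower, 3 higher and 24 not past, led by Psma2 of the core ring (-1.52 ± 0.16, adjusted p = 0.000866). Their lower share was 22.9%, and it was 23.4% for splicing factor genes and 22.2% for apoptosis regulators, against 13.5% of all features. Splicing factor genes had 11 of 47 lower, 1 higher and 35 not past, with Srsf5 at -1.12 and -1.16 in T cells, against -0.12 and -0.19 in kidney. Apoptosis regulators had 4 of 18 lower and 0 higher, among them Cycs, cytochrome c (-1.12 ± 0.11), and Bcl2l1, an inhibitor of the mitochondrial pathway (-1.27 ± 0.30, adjusted p = 0.0237). These 3 lists kept few calls in some settings. Without centring 3 proteasome, 2 splicing and 1 apoptosis gene were lower, and the list medians were above 0 (0.03, 0.05 and 0.15). Without kidney replicate 1 or 2 the lower genes numbered 5 or 4 for the proteasome, 6 or 7 for splicing and 2 or 3 for apoptosis, and without T cell replicate 1 or 2 the lower apoptosis genes numbered 1 or 2. Proliferation genes had 5 of 48 lower (10.4%) and 3 higher, with 2 of each without centring and 3 or 2 lower without kidney replicate 1 or 2. Hells, a chromatin remodeller of dividing cells, fell in both tissues and further in T cells, at -4.70 and -3.58 in T cells and -1.17 and -0.94 in kidney (-3.08 ± 0.36, adjusted p = 0.0013). Aurkb, a mitotic kinase, differed the other way (1.15 ± 0.13), with 0.21 and 0.15 in T cells, against -0.99 and -0.95 in kidney.

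**Figure D3:**
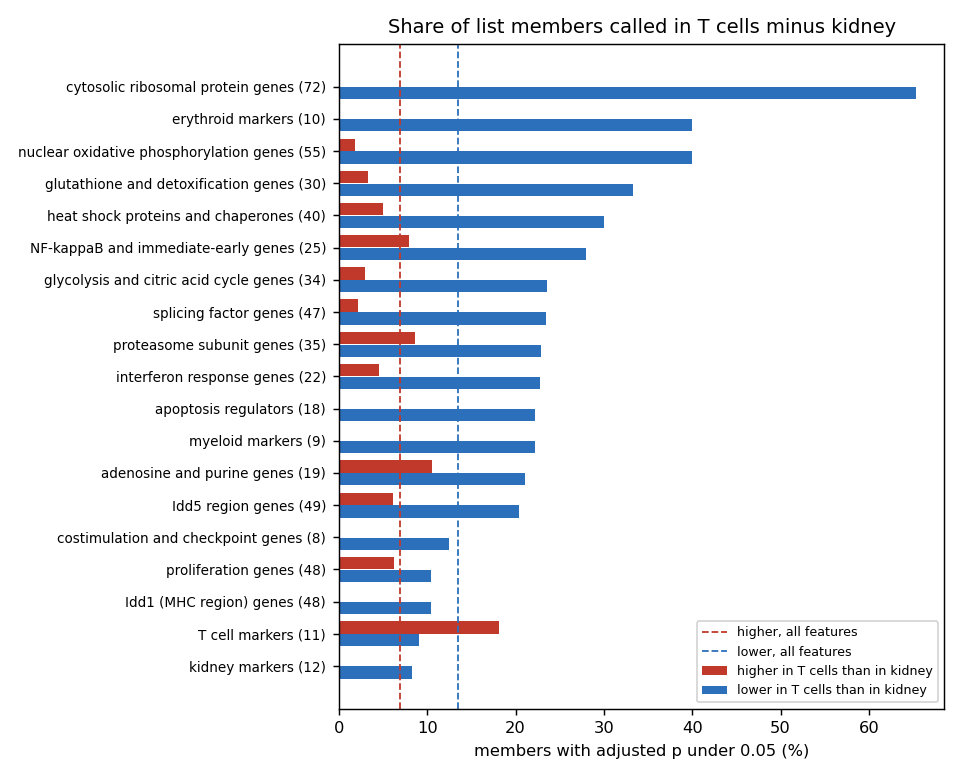
For each gene list with at least 8 measured members (number in brackets), bars give the percentage called higher (red) and lower (blue) in T cells than in kidney, and dashed lines the shares over all 14486 features, 6.96% and 13.5%. Ribosomal protein genes reach 65.3% lower, and Idd1, proliferation, costimulation, T cell marker and kidney marker genes lie below the blue line.

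Genes listed around the transferred intervals were examined next, as both tissues carry the same NOD alleles there. Of 48 measured Idd1 genes, 0 were higher, 5 lower and 43 did not pass, which is 10.4% lower against 10.1% of all genes. Of 49 Idd5 genes, 3 were higher, 10 lower and 36 did not pass (20.4% lower). Over whole chromosomes 14.3% of 364 genes on chromosome 17 and 18.7% of 459 on chromosome 1 were called, against 16.4% of 7009 genes on the other chromosomes. Without centring the Idd1 list had 1 higher and 1 lower gene and the Idd5 list 4 higher and 5 lower, and the list medians were above 0 (0.15 and 0.09, against -0.12 and -0.18 after centring). Without kidney replicate 1 or 2 the lower Idd1 genes numbered 2 and the higher Idd5 genes 0, and without kidney replicate 1 the lower Idd5 genes numbered 5. Without either T cell replicate 3 Idd1 genes were lower, and with only the 8 strain arrays in the fit 10 were. The lists come from general knowledge of the regions, since the ends of the intervals are not given.

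In the MHC region Rgl2, a Ras effector gene, had -1.40 and -1.25 in T cells, against 0.10 and 0.15 in kidney (-1.46 ± 0.097, adjusted p = 0.000156). Rps18, which lies in the same region and is also a ribosomal protein gene, fell in T cells and rose in kidney (-0.87 ± 0.092). Neu1, the lysosomal sialidase, differed by -0.76 ± 0.14, though its 2 probes gave -1.59 and 0.08. Neither class II gene described here passed. H2-Aa, the alpha chain of the I-A molecule, had 0.00 and 0.98 in T cells, against -0.33 and -0.38 in kidney (0.85 ± 0.34, adjusted p = 0.136), and the T cell arrays lay far apart. H2-Eb1, the beta chain of I-E, had -0.29 and -0.10 in T cells, against 0.08 and 0.10 in kidney (-0.28 ± 0.23, adjusted p = 0.452). Probes of these polymorphic genes may bind the alleles of the haplotypes unequally.

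In the Idd5 region Cd28, whose product costimulates T cells, was low in both tissues, at -1.45 and -1.29 in T cells and -1.11 and -1.24 in kidney. It fell against B6 on each side, and the tissue difference of -0.20 ± 0.14 did not pass (adjusted p = 0.382) and was 0.07 without centring. Icos, a related receptor, had 0.29 and 0.27 in T cells, against 0.10 and -0.03 in kidney, and did not pass in the difference (0.24 ± 0.88, adjusted p = 0.902). Its standard error draws on the spread in all 6 groups, and the arrays of each of these 2 tissues lay close together. Sf3b1, a core splicing factor, fell in both tissues and further in T cells, with -1.31 and -1.45 in T cells, against -0.43 and -0.48 in kidney (-0.93 ± 0.11, adjusted p = 0.00139). Clk1, a kinase that regulates splicing factors, had -0.98 and -0.95 in T cells, against 0.07 and 0.00 in kidney (-0.998 ± 0.14). Eef1b2, an exchange factor of translation elongation, had -0.70 and -0.78 in T cells, against 0.19 and 0.17 in kidney (adjusted p = 0.000885). Aamp, best known from cell migration, went the other way, with 0.59 and 0.48 in T cells, against -0.34 and -0.20 in kidney (0.80 ± 0.16, adjusted p = 0.0122). Counted by both sides against B6, 7 of the 48 Idd1 genes and 7 of the 49 Idd5 genes passed in the same direction in both tissues, and 1 of each list in opposite directions. Over all 7931 genes 808 (10.2%) passed in the same direction in both tissues and 205 (2.58%) in opposite directions.

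**Figure D4:**
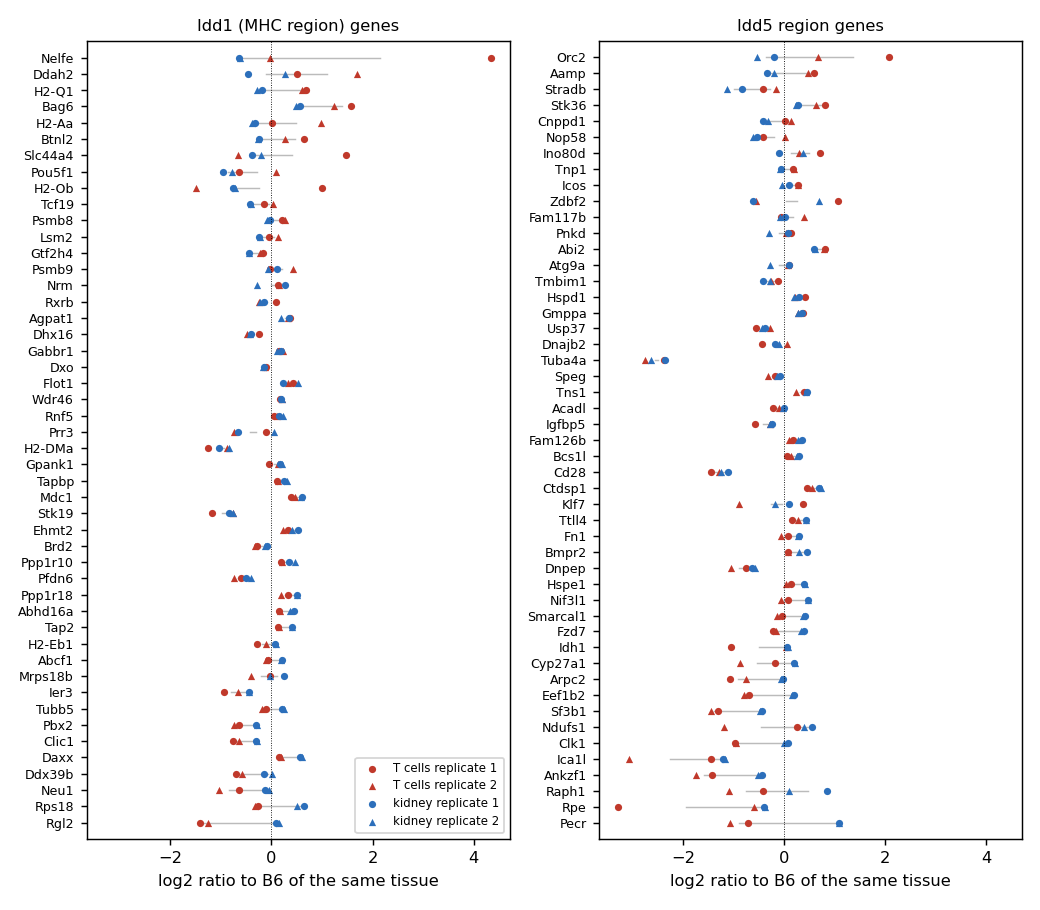
Measured genes of the Idd1 list (48, left) and the Idd5 list (49, right) are ordered by tissue difference, with log2 ratios to B6 of the T cell arrays in red and the kidney arrays in blue (circle replicate 1, triangle replicate 2, grey line between the means). Rgl2 has its T cell symbols well left of its kidney symbols, whereas the 4 values of Cd28 lie together between -1.45 and -1.11.

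Signalling and surface genes were described by 4 lists, to be read beside the shares over all features, 6.96% higher and 13.5% lower. Of 28 listed costimulation and checkpoint genes 8 were measured, and 1 was lower and 0 higher. That gene was Cd200, an inhibitory surface glycoprotein, with -0.67 and -0.71 in T cells, against 0.69 and 0.64 in kidney (-1.36 ± 0.094, adjusted p = 0.000177). Of 19 adenosine and purine genes 2 were higher and 4 lower, with 2 lower without centring or without kidney replicate 2. The list median was -0.26, and it was 0.01 without centring and near 0 without T cell replicate 2. Nt5e, which encodes CD73, the ectoenzyme that forms adenosine, had 4.13 and 4.55 in T cells, against -0.86 and -0.61 in kidney, a tissue difference of 5.08 ± 0.56 (adjusted p = 0.00323). Entpd1, which encodes CD39, the ectoenzyme one step before CD73, had -2.92 and -4.81 in T cells, against -0.56 and -0.47 in kidney (-3.35 ± 0.61, adjusted p = 0.00835). The 2 enzymes of one pathway thus differed in opposite directions, and neither passed against B6 in kidney. Paics, an enzyme of purine synthesis, was lower by -1.15 ± 0.16. Each of these 3 genes was read by 1 probe.

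Of 25 NF-kappaB and immediate-early genes 2 were higher, 7 lower (28.0%, against 13.5% of all features) and 16 not past, with a median of -0.22. Without centring 2 were lower and the median was 0.05. The lower genes numbered 2 or 3 without T cell replicate 1 or 2, and 3 without either kidney replicate. Nfkbia, the inhibitor of NF-kappaB that NF-kappaB itself induces, had -2.07 and -2.23 in T cells, against -0.11 and -0.27 in kidney (-1.96 ± 0.11, adjusted p = 9.55e-05). Tnip1, a partner of the NF-kappaB brake A20, differed the other way, with 1.48 and 1.56 in T cells, against -0.38 and -0.28 in kidney (1.85 ± 0.11, adjusted p = 0.000112). Jun, a subunit of the AP-1 factor, was higher by 0.97 ± 0.13 as the mean of 2 probes that disagreed between the T cell arrays. In T cells 1 probe of Jun had 1.27 and -0.88, and the other had 0.44 and 1.96. Btg1, an antiproliferative gene, was lower by -1.25 ± 0.11 with kidney at 0.02 and 0.00. Of 22 interferon response genes 1 was higher and 5 lower (22.7%), with a median of -0.12. Without centring 1 was lower and the median was 0.15. Without T cell replicate 1 the lower genes numbered 3, and without kidney replicate 1 or 2 they numbered 2 or 1, with 0 higher. Ifitm3, an antiviral membrane protein, had -1.12 and -1.36 in T cells, against 0.00 and 0.05 in kidney (-1.26 ± 0.14), and Bst2, which tethers budding virus, was higher by 1.499 ± 0.29.

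The largest positive differences came mostly from T cells. Msantd1 had 5.58 and 6.17 in T cells, against -1.20 and -1.19 in kidney (7.07 ± 0.19, adjusted p = 2.57e-06), and passed against B6 on both sides. Tcea2, a transcription elongation factor gene, had 7.02 and 6.02 in T cells, against -0.36 and -0.33 in kidney (6.86 ± 0.73, adjusted p = 0.00159). Fam76b had 3.89 and 4.06 in T cells, against -0.93 and -1.06 in kidney (4.97 ± 0.24). Tanc1, a scaffold protein gene, had 4.31 and 4.65 in T cells, against -0.08 and -0.57 in kidney (4.81 ± 0.35). Sap30, of a histone deacetylase complex, was different in kind: it had 0.79 and 3.50 in T cells, against -4.91 and -5.21 in kidney (7.20 ± 0.98, adjusted p = 0.00639), with the T cell side not past. For some genes the T cell arrays were far apart. Commd9 had 2.35 and 7.75 in T cells, against -0.23 and -0.17 in kidney (adjusted p = 0.0387), 5430401F13Rik had 5.84 and 1.89 in T cells, against -0.74 and -0.72 in kidney, and Pxdn, a peroxidase of basement membranes, had 5.15 and 3.49 in T cells, against -0.46 and -0.49 in kidney. Trim13, a ubiquitin ligase gene, had 4.66 and 0.57 in T cells, against -4.46 and -2.72 in kidney, and none of its 2 probes had a value on all 4 arrays. Every other gene of this paragraph was read by 1 probe, so agreement between probes cannot be checked for them.

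The largest negative differences were smaller. Acadvl and Hells, above, and Pcbp2, an RNA-binding protein gene, had replicates that lay closer to each other than the tissues did. Pcbp2 had -1.20 and -2.07 in T cells, against 1.03 and 0.82 in kidney (-2.56 ± 0.31, adjusted p = 0.00164). Only 1 of the 2 probes of Pcbp2 had 4 values, and it gave 0.55 and 0.58 in kidney and a difference of -2.20. Actn2, an alpha-actinin best known from muscle, had -1.77 and -2.14 in T cells, against 1.18 and 0.48 in kidney (-2.78 ± 0.45), and Srpx had -4.25 and -2.95 in T cells, against -0.40 and -0.50 in kidney (-3.15 ± 0.62). Acadvl, Hells, Actn2 and Srpx were each read by 1 probe, as were Agap3 and Vwa3a. Agap3 and Vwa3a lay on the kidney side, and their T cell values did not pass against B6. Agap3 had -1.10 and -0.10 in T cells, against 1.91 and 4.21 in kidney, and Vwa3a had -0.41 and -0.55 in T cells, against 3.96 and 1.75 in kidney. Pigf, a gene of GPI anchor synthesis, had -1.96 and -3.64 in T cells, against 1.43 and 2.10 in kidney (-4.57 ± 0.68, adjusted p = 0.00359). Its 2 probes did not cover the same arrays, and the 1 probe with 4 values had -1.96 and -3.64 in T cells, against -0.63 and -0.52 in kidney. On that probe kidney lay below B6, not above it, and the difference of -2.22 did not pass (adjusted p = 0.0692). For Ccni, a cyclin-like protein gene, the mean over both probes was -2.86, and the probe with 4 values gave -0.96 (adjusted p = 0.000335), with -0.69 and -0.64 in T cells, against 0.31 and 0.28 in kidney.

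**Figure D5:**
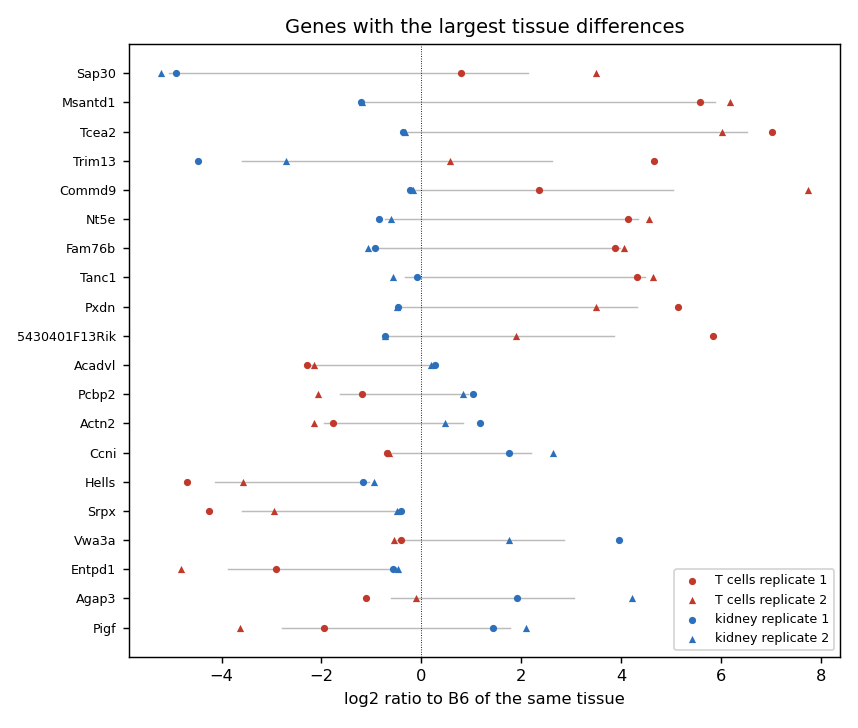
Among genes called with the arrays of the 2 tissues apart, the 10 farthest above 0 and the 10 farthest below 0 in tissue difference are shown, ordered from the top, with log2 ratios to B6 of the T cell arrays in red and the kidney arrays in blue. Symbols of Msantd1 and Fam76b nearly coincide within a tissue, whereas the T cell symbols of Commd9 span 2.35 to 7.75.

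Among the genes that passed in opposite directions, Mrpl57, a mitochondrial ribosomal protein gene, had 2.23 and 1.60 in T cells, against -2.10 and -2.43 in kidney (4.18 ± 0.38, adjusted p = 0.000894). Cdk2, a kinase of the cell cycle, had 1.34 and 2.64 in T cells, against -2.62 and -1.47 in kidney, but its 2 probes gave 8.04 and 0.03, so the mean rests on 1 of them. Odc1, the rate-limiting enzyme of polyamine synthesis, had -1.25 and -0.63 in T cells, against 0.91 and 0.90 in kidney (-1.85 ± 0.19, adjusted p = 0.00077). Its 2 probes both gave -1.85 as a mean difference. In T cells, however, 1 probe had -1.07 and -1.26 and the other -1.43 and -0.01, so the latter showed no drop on T cell replicate 2.

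Agreement between probes differed between the directions. Of 2581 genes with several probes valued on the 4 arrays, all probes had the same sign in 48.2%. Among those called lower this held for 238 of 263 (90.5%), and among those called higher for 81 of 155 (52.3%), against 42.8% of 2163 genes that did not pass. The calls rest on the mean of these probes, so the shares are a description. Higher genes with agreeing probes included Brwd1, a chromatin-binding protein gene, with 1.98 and 2.07 in T cells, against -0.31 and -0.08 in kidney (2.22 ± 0.19, adjusted p = 0.000436), and Pdia5, a disulphide isomerase of the endoplasmic reticulum, with 3.23 and 2.38 in T cells, against -0.64 and -0.18 in kidney.

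Cell type markers were read for their ratios only, since levels that would check the labelled tissue cannot be taken from them. Their counts stand beside shares over all features of 6.96% higher and 13.5% lower. Of 11 measured T cell markers 2 were higher (Txk, a kinase of T cells, 2.44 ± 0.23, and Sit1, an adaptor of the T cell receptor pathway, 2.15 ± 0.53), 1 was lower (Skap1, -0.73 ± 0.15) and 8 did not pass. Without kidney replicate 1 or 2 the counts were 1 higher and 0 lower. The list median was -0.34 in T cells and -0.46 in kidney. Against B6, 2 of the 11 rose and 6 fell in T cells, and 1 rose and 4 fell in kidney. Over all features 15.2% rose and 15.5% fell in T cells, and 22.5% rose and 11.0% fell in kidney. Sit1 had 0.62 and 2.41 in T cells, against -0.70 and -0.58 in kidney (adjusted p = 0.0343), and lost its call in 9 settings. Of 12 kidney markers 0 were higher and 1 was lower. Lrp2, megalin of the proximal tubule, had -0.60 and -0.31 in T cells, against 0.92 and 0.84 in kidney (-1.33 ± 0.17, adjusted p = 0.00196). Umod, the uromodulin of the thick ascending limb, had 0.52 and 0.46 in T cells, against 1.02 and 0.998 in kidney and did not pass (adjusted p = 0.0762). Of 10 erythroid markers 4 were lower and 0 higher, with list medians of -0.17 in T cells and 0.06 in kidney. Without centring 0 were lower, with the arrays scaled to the same spread 1, and without kidney replicate 2 the count was 2. The median tissue difference of the list was -0.34, and it was -0.04 or -0.70 without T cell replicate 1 or 2. Hbb-b1, the adult beta globin, had -1.08 and -1.30 in T cells, against 0.05 and -0.17 in kidney. These kidney values average 2 probes of opposite sign, with -0.63 and -1.19 on 1 probe and 0.73 and 0.86 on the other. The tissue differences of the 2 probes were -0.38 and -1.89. Alas2, which makes the first haem precursor in red cell precursors, differed by -1.34 ± 0.23. Of 9 myeloid markers 2 were lower (Lyz2, lysozyme, -0.90 ± 0.13, and S100a9, -0.72 ± 0.17) and 0 higher. Without centring 0 myeloid and 0 B cell markers were lower. B cell markers had 1 of 6 lower (Cd24a, -1.08 ± 0.14), and 0 of 3 NK and cytotoxic markers passed. The part of other cells in the differences was not tested, and in such bulk samples fewer cells of a type and less RNA per cell cannot be told apart. Of 2 sex-linked genes measured, the Y-linked Eif2s3y had -0.85 and -0.59 in T cells, against 0.59 and 0.54 in kidney (-1.28 ± 0.14, adjusted p = 0.0011).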

How the data were processed

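RNA of B6.NODIdd1,5 and B6 mice was hybridised to 2-colour cDNA arrays, 2 per tissue. Each deposited value was read as a log2 ratio from the values themselves, and the channels, experimental (Cy5) over B6 (Cy3), are given per the labels. Array medians differ, so no normalisation is visible, and no upstream tool is named in the labels. Cells holding the log2 of a ratio of 100000 (84 on the 4 arrays) were taken as no value. Each array was centred on its median, and probes with exactly 1 gene symbol (13033 of 20736, with 12850 symbols updated through RefSeq, GRCm38.p6) were averaged per gene. In 729 genes the probes averaged did not all cover the 4 arrays, so a mean over the probes with 4 values was added after the data were seen.

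The 12 arrays were fitted as 6 group means with limma 3.58.1 in R 4.3.3 (lmFit, eBayes; 6 residual and 1.36 prior degrees of freedom). A feature was tested where all arrays compared had a value. The fit was tested on simulated data. Promoter windows came from RefSeq. The members, the rule that names genes and the 22 gene lists were chosen with earlier results of these data known. Named genes were the 10 largest called differences in each direction with separate arrays, up to 3 called genes per list and direction by adjusted p, the 10 called genes with the largest opposite ratios, 5 per direction with agreeing probes, and 18 genes named whatever their values (9 measured). Alternatives changed the centring, scaling, filters, arrays, variance model, probe averaging and replicate block, or left out 1 array. The number of arrays limits the precision.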

Additional observations from a re-analysis of the deposited data

Results flagged for a closer look

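After centring, both T cell arrays of the genes below lay on one side of B6 and both kidney arrays on the other. Each side passed against B6, so the mean centred ratios to B6 had opposite signs in the 2 tissues. The values are tissue differences, T cells minus kidney, on the log2 scale, each past the threshold of the limma test of the difference itself (2 arrays per tissue). Genes above B6 in T cells and below it in kidney were Msantd1 (7.07), Fam76b (4.97), Tnip1 (1.85), Cdk2 (4.03) and Mrpl57 (4.18). Genes below B6 in T cells and above it in kidney were Pcbp2 (-2.56), Skap1 (-0.73), Lrp2 (-1.33), Lyz2 (-0.90), Rps18 (-0.87), Cd200 (-1.36), Hspa8 (-2.01), Hspa9 (-0.92), Cycs (-1.12), Uqcrb (-1.66), Atp5a1 (-1.37), Gapdh (-1.45), Tpi1 (-1.50), Pgam1 (-1.54), Psma2 (-1.52), Txn1 (-1.81), Rpl12 (-1.46), Rps3a1 (-1.56), Rps7 (-1.16), Eif2s3y (-1.28), Odc1 (-1.85) and Eef1a1 (-1.67). Pigf (-4.57) met the same condition as the mean of its probes, but its 1 probe with 4 values lay below B6 in both tissues (-0.63 and -0.52 in kidney), so its opposite sign rests on a probe that does not cover all arrays. The value of Cdk2 rests on 1 of 2 probes that disagree. Before centring the kidney array medians were -0.41 and -0.51, so smaller kidney values lay below B6 as deposited. Examples were Hspa9 (0.30 and 0.27 in kidney), Cycs (0.26 and 0.28), Pgam1 (0.33 and 0.38) and Psma2 (0.35 and 0.45). Genes with opposite directions numbered 125 without centring, against 205 after it.

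Probes with no gene name, or with several, gave calls that no gene list describes. Of 6555 such features tested, 503 were higher and 1162 lower in T cells than in kidney.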

How the results depend on the processing

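Counts changed more than the signs of single called genes did. The split of the called features reversed without centring, from 34.0% to 73.3% higher, and the median over all features went from -0.10 to 0.16. Without centring, 376 features were lower in T cells than in kidney (1961 after centring), 1009 were higher than B6 in T cells, and in kidney 431 were higher and 4616 lower. In that setting 125 genes had opposite directions and 14 ribosomal protein genes were lower. With only the 8 strain arrays in the fit, 2835 features were lower in kidney than in B6 and 341 genes had opposite directions. Leaving out 1 array at a time gave 476 to 1286 features higher and 976 to 2398 lower in T cells than in kidney. Against B6 the ranges were 1686 to 2648 higher and 1690 to 2842 lower in T cells, and 1924 to 4018 higher and 568 to 2384 lower in kidney. Genes with opposite directions ranged between 74 and 280, and lower ribosomal protein genes between 26 and 50. The low ends of the tissue difference, the kidney comparison, the opposite genes and the ribosomal protein genes came from leaving out kidney replicate 1 or 2, which leaves a lone array assumed to vary like the other groups. Reversed single values, none past the threshold, were Cd28 without centring (0.070) and Icos with a running median along the probe order (-0.057). With the 4 arrays alone 852 of the 1304 genes kept their call and direction, and with only probes valued on all 4 arrays 1255 did. The 75 called genes named here kept their sign in every setting that gave a value. The call was lost in at least 1 setting for 5430401F13Rik, Aamp, Aco1, Agap3, Alas2, Bcl2l1, Bst2, Calr, Cd24a, Cdk2, Commd9, Entpd1, Gpx1, Hbb-b1, Hspa13, Hspa9, Lyz2, Ndufc2, Neu1, Pigf, Pxdn, Rps18, S100a9, Sit1, Skap1, Srpx, Srsf5, Trim13 and Vwa3a. Commd9 lost its call in 10 settings, Sit1 in 9, and S100a9 and Vwa3a in 7 each. The cause of these changes was not tested. The labels do not say whether replicate numbers pair the samples. Replicate 1 minus replicate 2 in T cells and in kidney correlated at 0.02 across features (Pearson's r). Noise of the separate arrays enters these deviations, so the value cannot decide whether samples were paired. With the replicate block 946 features were higher and 1830 lower, and the calls of all 75 named genes held. Levels and spot signal over background were not analysed here, so their limits on single genes are unknown.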
